A study of Mus musculus with 30 samples.

Results

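Primordial germ cells, from which eggs and sperm later form, were followed from E11.5 to E12.5 in XX mouse embryos in which Rnf2 was deleted. The members were the 3 arrays labelled female, Ring1+;Rnf2delta and E11.5 and the 3 with the same labels at E12.5, which together make 6 of the 30 arrays of the series, and the labels alone chose them. GFP-positive cells were sorted from trypsin-treated gonads, and total RNA from 500 cells was amplified (TransPlex whole transcriptome method) before hybridisation to Affymetrix arrays. All groups used here carried the Oct4(deltaPE)-GFP transgene, a germ cell reporter built from Pou5f1 regulatory sequence, on a mixed 129/Sv and C57BL6J background, and all were labelled Ring1+. The groups set beside the members were control XX cells (Ring1+;Rnf2+, female) and Rnf2delta XY cells (Ring1+;Rnf2delta, male) at E11.5 and E12.5, with 3 arrays in each. How and when Rnf2 was deleted is not given in the sources used here. Nothing in the labels tells whether replicate arrays stem from different embryos or litters. The p-values therefore measure only the spread among these arrays, and that spread may be technical.

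Rnf2 and Ring1 encode alternative catalytic subunits of PRC1, a Polycomb complex that marks histone H2A with ubiquitin and keeps developmental genes silent. In the fetal ovary, retinoic acid and BMP signals lead germ cells out of mitosis and into meiosis, with Stra8 as the best known early response, while the pluripotency network is switched off. In the fetal testis meiosis is held back. The series addressed how PRC1 times this step in female germ cells, and the comparison described here asks what changed over this day in the Rnf2-deleted cells.

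Values are the authors' log2 signals, and a change is the mean at E12.5 minus the mean at E11.5 with its standard error (SE). Adjusted p-values come from limma with Benjamini-Hochberg adjustment over 15180 genes, and a gene is said to have risen or fallen where that value was under 0.05. Genes said to have risen or fallen and given with an SE kept the call under every alternative in which they were tested and without any single array, unless stated otherwise. The 3 E12.5 arrays spread more than the 3 E11.5 arrays: the median SD of a gene within the group was 0.207 against 0.142. It was 0.238 in control XX cells at E12.5 and 0.140 to 0.175 in the other 7 groups. Each group therefore had its own weight in the fit. The sex labels held: Uba1y, a Y-linked gene, lay between 2.57 and 3.12 on the 6 arrays and between 7.75 and 8.70 on the Rnf2delta XY arrays. The Sry probe set did not separate the sexes, at 3.84 to 4.32 on the 6 arrays and 3.56 to 4.36 in Rnf2delta XY cells. Transcripts that define germ cells were present at both stages, with Ddx4 at 6.86 to 6.99 and then 8.05 to 8.48, and Dppa3 at 8.16 to 8.51 and then 8.19 to 8.64.

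Rnf2 signal was lower in the mutant than in the control at each stage, and it rose between the stages. It was 3.96, 3.81 and 4.04 on the Rnf2delta XX arrays at E11.5 and 4.47, 5.0 and 4.68 at E12.5. The control XX arrays read 4.56, 4.61 and 4.46 at E11.5 and 5.71, 5.25 and 5.08 at E12.5. The mutant arrays lay below the control arrays of the same stage without overlap, and the E12.5 mutant arrays overlapped the E11.5 control arrays. The rise in the mutant was 0.78 ± 0.20 (SE, n = 3 arrays per stage; adjusted p = 0.00804), and adjusted p was 0.1 without Rnf2delta XX E12.5 replicate 2. The same change in the control was 0.80 ± 0.23 (adjusted p = 0.0242). Whether the probe set lies in the deleted part of the gene is not given in the sources used here. Ring1, the paralogue left intact, changed by -0.06 ± 0.15 (adjusted p = 0.842).

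Over all genes, 907 rose, which is 5.97% of the genes tested, and 1491 fell, which is 9.82%. A change of at least 1 on the log2 scale was reached by 177 of those that rose and 238 of those that fell. The median change over all genes was -0.058. In 1758 genes (11.6%) all 3 arrays of E12.5 lay above all 3 of E11.5, and in 3091 (20.4%) all 3 lay below. The balance of directions depended on the scaling: 1294 rose and 1155 fell after quantile normalization, and 1274 rose and 1064 fell after the array medians were aligned. Replicate 1 of E12.5 lay farthest in the direction of the call in 588 of the 907 genes that rose and 742 of the 1491 that fell. Without it 459 genes rose and 834 fell. Under every alternative and without any single array, 318 genes rose and 566 fell.

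Many genes of meiotic entry rose. Of the members of 4 lists covering meiotic initiation, the synaptonemal complex, cohesins with axis proteins, and recombination, 47 were tested, 27 rose and 0 fell. Replicate 1 of E12.5 had the highest signal of the 3 E12.5 arrays in each of these 27 genes. By list, 7 of 8 initiation genes rose (median change over the list 1.38), 6 of 7 synaptonemal complex genes (1.85), 5 of 7 cohesin and axis genes (1.17) and 9 of 25 recombination genes (0.47), against 5.97% of all genes and a median of -0.058. The samples hold bulk RNA, so more cells in meiosis and more transcript per cell cannot be told apart.

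Stra8, which is induced by retinoic acid and required for meiotic prophase, was 2.32, 2.37 and 1.85 at E11.5 and 6.50, 5.66 and 4.60 at E12.5. It was near the lower end of the array at E11.5, where 40% of probe sets lay below 2.21 to 2.28, and every E12.5 array was far above that. The rise was 3.41 ± 0.35 in the log2 values (SE, n = 3 per stage; adjusted p = 3.79e-07), and no fold is given because the E11.5 signal is that low. Meioc, whose protein partners with Ythdc2 to keep germ cells in meiotic prophase, was 2.27, 1.98 and 1.92 at E11.5 and 6.10, 4.43 and 4.83 at E12.5. Its E11.5 arrays were also at that lower end, and the log2 values rose by 3.06 ± 0.27 (adjusted p = 2.06e-08), while Ythdc2 rose by 1.31 ± 0.27 (adjusted p = 0.00129). For both genes of this pair the arrays of the stages were separate, and replicate 1 of E12.5 was the highest. Rec8, the meiotic cohesin, was 3.80, 3.88 and 3.86 at E11.5 and 6.35, 5.69 and 5.48 at E12.5, a rise of 1.99 ± 0.24 (adjusted p = 2.41e-06). Zglp1, a transcription factor that acts downstream of BMP in oogenic fate, was 3.45, 3.17 and 3.50 and then 5.15, 5.08 and 4.22. Its rise was 1.45 ± 0.23 (adjusted p = 8.64e-05), again with no overlap. Tex14, which builds the bridges between sister germ cells, rose by 0.996 (adjusted p = 0.00069). Rbm46, an RNA-binding partner in this pathway, was the tested member that did not pass, at 0.52 (adjusted p = 0.0993). Gata2, also on this list, lost the call without replicate 1, 2 or 3 of E12.5, and in each of these fits 6 initiation genes rose.

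**Figure D1:**
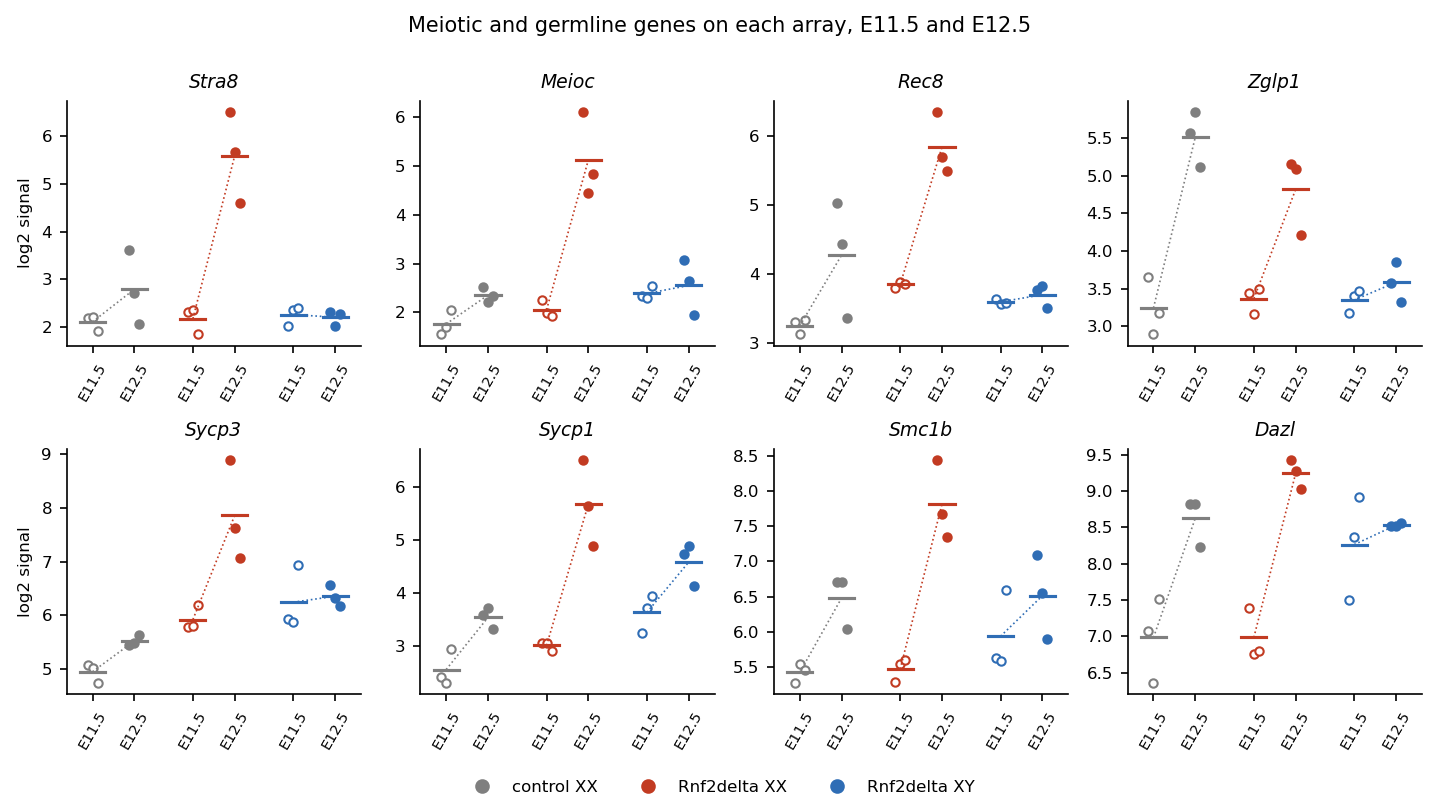
Log2 signal of 8 meiotic and germline genes on each array, with E11.5 as open and E12.5 as filled points, 3 arrays per group and a bar at each mean. In the Rnf2delta XX groups the E12.5 points lie above all E11.5 points in each panel, for example Stra8 at 4.60 to 6.50 against 1.85 to 2.37, while Rnf2delta XY cells stay at 2.03 to 2.31 at E12.5 for this gene.

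The structural genes of the synaptonemal complex, the zipper between paired chromosomes, followed. Sycp1, the transverse filament protein, was 3.06, 3.06 and 2.92 at E11.5 and 6.50, 5.64 and 4.88 at E12.5, a rise of 2.66 ± 0.30 (6.32-fold, adjusted p = 1.46e-06). Sycp3, the lateral element protein, was 5.78, 5.79 and 6.18 and then 8.90, 7.62 and 7.07, a rise of 1.95 ± 0.35 (adjusted p = 0.000282). The E12.5 arrays were apart from the E11.5 arrays for both, and they also spread widely among themselves. Sycp2, the partner of Sycp3, rose by 1.22 ± 0.23 (not tested under the stricter filter on low values) and Tex12, a central element gene, by 1.85 ± 0.37. The locus 4930447C04Rik, which encodes the central element protein SIX6OS1, rose by 2.23 ± 0.30 (adjusted p = 1.15e-05). Syce1, another central element gene, was at -0.11 and did not pass.

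Among cohesins and axis proteins, Smc1b, the meiotic cohesin subunit, was 5.28, 5.54 and 5.59 at E11.5 and 8.44, 7.67 and 7.34 at E12.5. This was a rise of 2.35 ± 0.28 (adjusted p = 2.24e-06) without overlap. Hormad1 and Hormad2, which load on unpaired axes, rose by 1.63 ± 0.21 and 1.17 ± 0.18, and the cohesin subunit Stag3 by 1.21 ± 0.18. Iho1, needed for double-strand breaks, was 4.29, 2.85 and 2.40 at E12.5 against 2.27, 2.35 and 2.40 at E11.5. Its stages overlapped, its change of 0.84 rested on replicate 1 of E12.5, and adjusted p was 0.347 without that array.

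The recombination list was more uneven. Dmc1, the meiotic strand-exchange protein, was 3.59, 3.20 and 3.96 at E11.5 and 5.72, 4.71 and 4.82 at E12.5, a rise of 1.50 ± 0.27 (adjusted p = 0.000264). Spo11, which makes the breaks, was 2.84, 2.48 and 2.46 and then 3.87, 3.39 and 3.51, a rise of 0.997 ± 0.20 (adjusted p = 0.000993). Tex11, an X-linked crossover gene, rose by 1.58 ± 0.24 and Terb2, which tethers telomeres, by 1.06 ± 0.22. The arrays of the stages were separate for these 4 genes. Tex15 and Spata22 passed through replicate 1 of E12.5. Tex15 read 5.95, 4.03 and 3.82 there against 2.97 to 3.05 at E11.5, and its adjusted p went from 0.00844 to 0.176 without that array. Spata22 read 4.64, 2.16 and 2.05 against 1.61 to 1.79, and its adjusted p without that array was 0.485. Prdm9, which places hotspots, was at 0.42 and Mei4 at -0.37, and neither passed.

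Promoter letters are shown for 5 of the genes that rose, so that the letters counted can be seen in genes the result turns on. Each window holds the 250 bases before the transcription start on the gene's strand, from RefSeq on GRCm38.p6, at chr6:34920698-34920947 (+ strand) for Stra8, chr10:88459337-88459586 (+) for Sycp3, chr3:102936101-102936350 (- strand) for Sycp1, chr3:95559427-95559676 (+) for Hormad1 and chr1:166238745-166238994 (-) for Mael. Hormad1 has 2 windows that differ by 2 bases, and the upstream window is printed. Capitals mark 4 sets of letters searched on both strands: CACGTG, the E-box, which reads the same on both strands; TTCCCGC, an E2F-type site; AGGTCA, the core site of retinoic acid receptors; and CNCCTCAG, the motif described for STRA8 with MEIOSIN.
Stra8: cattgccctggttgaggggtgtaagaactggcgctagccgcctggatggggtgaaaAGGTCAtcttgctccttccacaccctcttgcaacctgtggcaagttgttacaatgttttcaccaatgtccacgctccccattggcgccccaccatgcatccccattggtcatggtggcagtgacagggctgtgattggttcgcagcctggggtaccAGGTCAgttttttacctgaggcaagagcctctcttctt
Sycp3: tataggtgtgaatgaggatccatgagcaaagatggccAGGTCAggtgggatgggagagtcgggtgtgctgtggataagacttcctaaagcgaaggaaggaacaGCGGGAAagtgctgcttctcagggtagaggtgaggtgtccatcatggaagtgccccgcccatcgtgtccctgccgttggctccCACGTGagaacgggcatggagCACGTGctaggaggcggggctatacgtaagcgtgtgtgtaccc
Sycp1: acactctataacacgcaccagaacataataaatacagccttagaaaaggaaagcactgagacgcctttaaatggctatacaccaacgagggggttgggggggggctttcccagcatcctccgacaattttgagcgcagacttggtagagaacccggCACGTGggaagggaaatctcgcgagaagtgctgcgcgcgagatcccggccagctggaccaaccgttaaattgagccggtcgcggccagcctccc
Hormad1: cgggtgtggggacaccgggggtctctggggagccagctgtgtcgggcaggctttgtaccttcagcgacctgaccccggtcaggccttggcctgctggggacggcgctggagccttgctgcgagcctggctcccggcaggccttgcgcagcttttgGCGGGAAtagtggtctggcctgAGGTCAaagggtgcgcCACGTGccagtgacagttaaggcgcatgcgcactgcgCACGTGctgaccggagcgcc
Mael: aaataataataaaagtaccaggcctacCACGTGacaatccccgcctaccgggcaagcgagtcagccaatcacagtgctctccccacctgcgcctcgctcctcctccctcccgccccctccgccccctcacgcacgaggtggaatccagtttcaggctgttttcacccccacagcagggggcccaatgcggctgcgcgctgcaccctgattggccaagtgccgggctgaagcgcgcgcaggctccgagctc
The Stra8 window holds AGGTCA at 194 to 189 and at 38 to 33 bases before the start, and none of the other letters. Sycp3 holds CACGTG at 64 to 59 and 43 to 38 bases before the start, and Hormad1 at 57 to 52 and 20 to 15. Both also hold a TTCCCGC on the opposite strand and 1 AGGTCA, while Sycp1 and Mael hold a single CACGTG.

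A window was found for 12002 of the genes tested, and CACGTG was in 9.27% of them. It was in 12% of the 725 genes with a window that rose and in 11.8% of the 1181 that fell. Among meiotic list members that rose, 8 of 21 with a window held it (38.1%), and among members of the germline licensing list that rose, 9 of 18 (50%). Among all tested members of these lists with a window, whether they rose or not, it was in 27.5% and 41.4%. TTCCCGC was in 7.39% of tested genes, in 38.1% of the meiotic members that rose (27.5% of all tested members) and in 22.2% of the licensing members that rose (20.7%). AGGTCA was in 13.9% of tested genes and in 19% and 16.7% of these members (22.5% and 13.8% of all tested members). CNCCTCAG was in 8.56% of tested genes, in 12% of all genes that rose and in 9.52% and 11.1% of the same members (5 of 40 and 3 of 29 of all tested members with a window). These are counts of letters in windows, and no binding was measured.

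Germline licensing and genome defence genes, which include the germ cell RNA helicase and RNA-binding genes and the piRNA machinery that restrains transposons, often rose. Of 31 tested, 19 rose and 0 fell, with a median of 0.86, against 5.97% of all genes that rose. Without replicate 1 of E12.5, 12 rose (38.7%), against 3.02% of all genes. Hormad1 is on this list too. Dazl, the RNA-binding protein that licenses germ cells for sexual differentiation, was 7.39, 6.76 and 6.80 at E11.5 and 9.43, 9.28 and 9.03 at E12.5. It rose by 2.26 ± 0.29 (4.79-fold, adjusted p = 4.9e-06), and its E12.5 arrays were close together. Ddx4, the germ cell helicase, rose by 1.38 ± 0.28 (adjusted p = 0.000849). Mael, a piRNA pathway protein, was 5.45, 4.84 and 5.44 and then 7.11, 7.10 and 6.59, a rise of 1.69 ± 0.29 (adjusted p = 0.00021). Slc25a31, a germ cell ATP carrier, rose by 1.78 ± 0.28 and the surface protein gene Tex101 by 1.88 ± 0.32, from 3.92 to 4.47 on the E11.5 arrays to 5.52 to 6.96 on the E12.5 arrays. Piwil2, Piwil4 and Tex19.1 were at 0.10, 0.14 and -0.04 and did not pass. Stk31, a germ cell tudor kinase outside the lists, rose by 1.96 ± 0.29 (adjusted p = 3.21e-05).

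Pluripotency genes went the other way: of 31 tested, 16 fell and 0 rose, with a median of -0.70, against 9.82% of all genes. Without replicate 1 of E12.5, 10 fell (32.3%), against 5.49% of all genes. Tdgf1, the Nodal co-receptor that marks pluripotent cells, was 5.29, 5.36 and 5.54 at E11.5 and 2.40, 2.66 and 2.03 at E12.5. It fell by 3.03 ± 0.41 on the log2 scale (adjusted p = 1.15e-05) to near the lower end of the arrays, the largest fall among the 15180 genes. Nanog was 8.48, 8.50 and 8.93 and then 7.03, 7.79 and 7.54, and fell by 1.18 ± 0.21 (adjusted p = 0.000227). Sox2 was 6.55, 6.38 and 6.68 and then 5.77, 5.65 and 5.76, and fell by 0.81 ± 0.19 (adjusted p = 0.00304). Pou5f1, whose regulatory sequence drives the sorting reporter, was 9.71, 9.23 and 9.43 and then 8.45, 8.79 and 8.86, and fell by 0.76 ± 0.17 (adjusted p = 0.00292). In all 4 genes the E12.5 arrays lay below every E11.5 array. Other members that fell were L1td1, an RNA-binding protein of stem cells (1.85 ± 0.21), Zfp296 (1.70 ± 0.22) and the nuclear receptor Esrrb (1.33 ± 0.19). Lin28b and Fgf4 were at 0.39 and 0.26, and Sall4 at -0.19, and these did not pass.

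**Figure D2:**
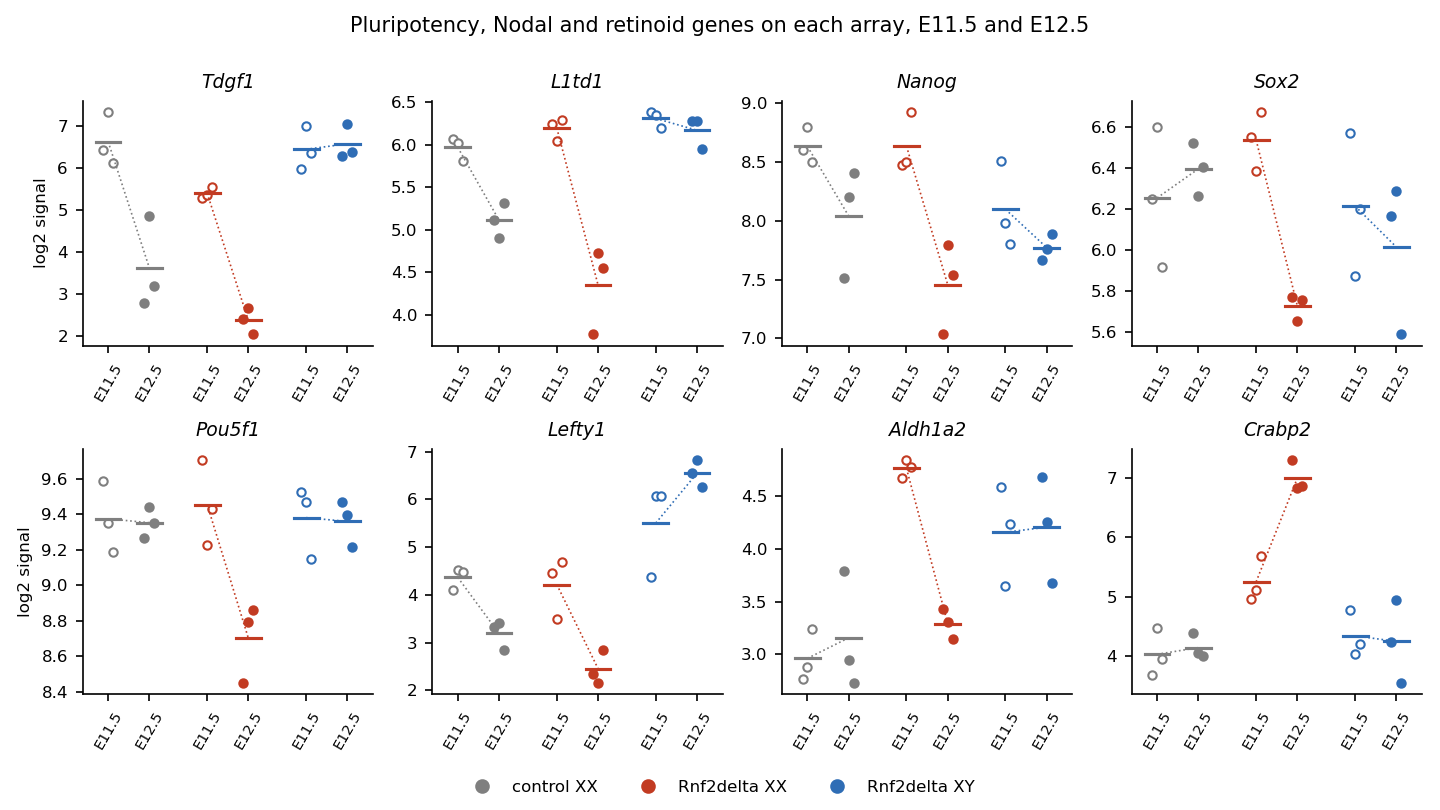
Log2 signal of 8 pluripotency, Nodal and retinoid genes on each array, drawn as in the plot of meiotic genes, with open points for E11.5 and filled points for E12.5. In the Rnf2delta XX groups Crabp2 is higher at E12.5 and the other 7 genes are lower, such as Tdgf1 at 2.03 to 2.66 against 5.29 to 5.54, and the stages do not overlap in any panel for these groups.

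Of 20 tested genes of the early germ cell 6 fell and 1 rose, with a median of -0.48, against 9.82% of all genes that fell. This count rested on replicate 1 of E12.5: without it 1 fell (5%), which is near the 5.49% of all genes. Ifitm3, the surface marker of germ cell founders, was 10.61, 10.77 and 11.07 and then 9.21, 9.65 and 9.44, and fell by 1.38 ± 0.27 (adjusted p = 0.000591). Prdm1, the specification factor, was 5.33 to 5.42 at E11.5 and 4.46 to 4.95 at E12.5, a change of -0.63 (adjusted p = 0.00607, and 0.0777 without that array). Elavl2 was the member that rose, by 0.66 (adjusted p = 0.00207). Kit, the receptor for survival signals, changed by -0.31 ± 0.15 (adjusted p = 0.182), and Dppa3 by 0.15 ± 0.16.

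The 19 tested genes of the male pathway and Nodal signalling had a median of -0.12. Of them 4 fell (21.1%, against 9.82% of all genes) and 1 rose (5.26%, near the 5.97% of all genes). Tdgf1 is among these 4. Lefty1, a Nodal target and inhibitor, was 4.45, 3.50 and 4.70 at E11.5 and 2.35, 2.16 and 2.85 at E12.5, a fall of 1.76 ± 0.40 (adjusted p = 0.00268). Smad3, which carries the signal, fell by 0.90 ± 0.18 and the receptor gene Acvr2b by 0.61 ± 0.13, both without overlap. Acvr2a was the member that rose, by 0.66, but its stages overlapped and its adjusted p was 0.397 at the highest among the alternatives. Nanos2, the switch to the male fate, stayed near the lower end of the arrays at 2.155 to 2.54 and then 2.07 to 2.35 (change -0.12, adjusted p = 0.854).

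Of 18 tested retinoic acid genes 2 rose (11.1%, against 5.97% of all genes) and 1 fell (5.56%, against 9.82%), with a median of 0.03. Crabp2, the carrier that hands retinoic acid to its receptors, was 4.96, 5.11 and 5.67 at E11.5 and 7.30, 6.83 and 6.86 at E12.5, a rise of 1.75 ± 0.32 (3.35-fold, adjusted p = 0.000302). Rdh10, which makes retinal from retinol, was 3.58, 3.49 and 3.91 and then 4.34, 4.34 and 4.64, a rise of 0.78 ± 0.17 (adjusted p = 0.00148). Aldh1a2, which makes retinoic acid itself, was 4.67, 4.84 and 4.77 and then 3.43, 3.30 and 3.15, and fell by 1.47 ± 0.28 (adjusted p = 0.00044). None of the 3 overlapped between stages. Rarb, a receptor gene that retinoic acid induces in many tissues, stayed at 2.27 to 2.47 and 2.23 to 2.27 (change -0.13, adjusted p = 0.587), and Cyp26b1, the degrading enzyme, was at 0.06.

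In the BMP list 5 of 22 rose (22.7%, against 5.97% of all genes) and 1 fell (4.55%, against 9.82%). The median was 0.27, and 2 rose without replicate 2 of E12.5. Zglp1 and Gata2, counted above with meiotic initiation, are among the 5, and Gata2 lost the call without any 1 replicate of E12.5. Bmp2, a ligand, was 2.60 to 2.68 at E11.5 and 3.25 to 3.79 at E12.5, a rise of 0.81 ± 0.18 (adjusted p = 0.00266, and 0.0608 without that array). Id4, a response gene, changed by 0.80 (adjusted p = 0.012) and the receptor gene Bmpr1a by 0.67 (adjusted p = 0.0295), and both lost the call without replicate 1 of E12.5, the second of them also without replicate 2. Smad7, an inhibitor of the pathway, was the member that fell, at -0.63 (adjusted p = 0.012), and it lost the call without replicate 1 of E11.5 or replicate 3 of E12.5, with an adjusted p of at most 0.0817. Id1, Id2 and Id3, the classical targets, were at 0.61, 0.92 and 0.21 and did not pass.

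Of 27 tested PRC1 genes, Rnf2 included, 8 rose (29.6%, against 5.97% of all genes), with a median of 0.07. The 3 that fell (11.1%) are near the 9.82% of all genes, and 1 fell after the array medians were aligned. Phc3, a polyhomeotic subunit, was 2.83, 3.37 and 3.31 at E11.5 and 4.32, 5.26 and 3.83 at E12.5, a rise of 1.30 ± 0.24 (adjusted p = 0.00036). Bmi1, the canonical Polycomb group RING finger, was 5.17, 5.20 and 5.53 and then 6.69, 6.01 and 6.52, a rise of 1.11 ± 0.25 (adjusted p = 0.0026). Yaf2, a variant PRC1 subunit, rose by 1.05 ± 0.20. L3mbtl2, a member of the PRC1 complex with Pcgf6, was 5.59, 5.49 and 5.65 and then 4.95, 4.38 and 4.44, and fell by 0.99 ± 0.19 (adjusted p = 0.000689). The arrays of the stages were separate for these 4. The count of members that fell was 1 without replicate 2 or without replicate 3 of E12.5. In PRC2, Rbbp7, a histone-binding subunit on the X chromosome, rose by 0.97 ± 0.15 (adjusted p = 7.1e-05). It was the only call among 13 (7.69%, near the 5.97% of all genes), with Ezh2 at 0.24 and Eed at -0.24.

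Genes that Polycomb silences in other cells are set beside the shares of all genes, of which 5.97% rose and 9.82% fell. The tested Hox genes averaged 2.25 to 2.30 on the E11.5 arrays, where 40% of probe sets lay below 2.21 to 2.28. Signals this low leave little room for a fall, so no result about these genes is drawn from the counts. A stricter filter on low values left 0 calls among the Hox genes because Hoxd8 was then not tested. Among Hox genes 1 of 25 rose (4%) and 0 fell. This was Hoxd8, by 0.65 ± 0.14 (adjusted p = 0.00194), from 1.92 to 2.06 at E11.5 to 2.42 to 2.97 at E12.5. It stayed near the lower end of the arrays. Among other developmental transcription factors 2 of 54 rose (3.7%) and 0 fell, and the share that rose is near the 5.97% of all genes. The 2 that rose were Cdx2 (0.61, adjusted p = 0.0268) and Gata2 (0.56, adjusted p = 0.0436), and both lost the call without replicate 1, 2 or 3 of E12.5. The median changes of the lists were 0.15 and 0.04. A further 12 Hox genes and 10 of these factors were under the signal filter and were not tested.

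Cell cycle genes changed in parts. Rb1, which restrains entry into S phase, was 2.99, 2.97 and 3.44 at E11.5 and 4.66, 4.86 and 4.48 at E12.5, a rise of 1.54 ± 0.21 (adjusted p = 1.24e-05). Ccnd1, a G1 cyclin, rose by 1.11 ± 0.19 and Ccnd3 fell by 0.94 ± 0.17, both with separate arrays. Among CDK inhibitors, Cdkn2d and Cdkn1c passed at 0.71 and 0.59, and both lost the call without several single arrays, while Cdkn2a, a well known Polycomb target, was at 0.19 (adjusted p = 0.614). Of 26 DNA replication genes 7 fell (26.9%, against 9.82% of all genes) and 2 rose (7.69%, against 5.97%), with a median of -0.23. After quantile normalization 6 fell and 4 rose, and 4 fell without replicate 1 of E12.5 (15.4%, against 5.49%). Mcm3 and Mcm7, subunits of the replicative helicase, fell by 0.72 ± 0.14 and 0.77 ± 0.15. Of 39 mitotic genes 8 fell (20.5%, against 9.82% of all genes), with a median of -0.17. Without replicate 1 of E12.5, 2 fell (5.13%), which is near the 5.49% of all genes. Cdc25c, the phosphatase for mitotic entry, was 3.83, 3.83 and 4.03 and then 2.91, 2.75 and 2.88, and fell by 1.05 ± 0.22 (adjusted p = 0.00131), and Nek2 fell by 0.72 ± 0.17. Aurkb was 6.61, 6.13 and 6.32 and then 4.47, 5.77 and 5.22, a change of -1.20 with an adjusted p of 0.00689, or 0.104 without that array. Mki67 and Top2a were at -0.10 and -0.15 and did not pass.

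Of 21 glucose uptake and glycolysis genes 5 fell (23.8%, against 9.82% of all genes) and 0 rose, with a median of -0.41. Without replicate 1 of E12.5, 3 fell (14.3%, against 5.49%). Slc2a1, the main glucose transporter, was 7.24, 7.11 and 6.91 at E11.5 and 5.84, 5.85 and 5.62 at E12.5, and fell by 1.31 ± 0.19 (adjusted p = 2.16e-05). Pkm, pyruvate kinase, was 8.80, 8.38 and 8.26 and then 6.86, 7.46 and 7.02, and fell by 1.37 ± 0.17 (adjusted p = 3.24e-06). Pfkl, a phosphofructokinase, fell by 1.18 ± 0.25. The nuclear-encoded respiratory chain showed 8 falls (11%) and 3 rises (4.11%) among 73 genes, close to the 9.82% and 5.97% of all genes. Its median was -0.09, and 5 fell without replicate 1 of E12.5. The balance turned with scaling, with 7 rises and 6 falls after quantile normalization and also after the array medians were aligned. Within it Atp5d and Atp5a1, subunits of ATP synthase, fell by 1.20 ± 0.16 and 0.83 ± 0.12, while Atp5pb of the same enzyme rose by 0.99 ± 0.19.

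In the insulin-like growth factor axis 3 of 14 rose (21.4%, against 5.97% of all genes) and 2 fell (14.3%, against 9.82%). Igf1r and Insr, the receptors, passed at 0.84 and 0.60, but 0 genes of this list rose without replicate 1 or without replicate 2 of E12.5. Igf2bp1, an RNA-binding protein of growth transcripts, was 5.38, 5.11 and 4.94 and then 3.48, 4.33 and 3.71, and fell by 1.30 ± 0.24, and Igfbp2 fell by 0.998 ± 0.23. On the list of migration and adhesion, Cldn6 and Ifitm3 fell, and Ifitm3 is already counted above with the early germ cell genes. Cldn6 fell by 1.20 ± 0.26, from 4.47 to 4.72 at E11.5 to 2.81 to 3.86 at E12.5. In all 4 of 18 genes of migration and adhesion fell (22.2%, against 9.82% of all genes). Of 18 immediate early and dissociation stress genes 7 fell (38.9%, against 9.82% of all genes) and 0 rose, with a median of -0.56. Without replicate 1 of E12.5, 4 fell (22.2%, against 5.49%), and 4 fell without replicate 2. The falls were led by Ier3 (-1.07 ± 0.20) and Klf6 (-0.97 ± 0.19). These genes respond to handling of tissue, and their part in the other results was not tested.

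Calls in the following lists were near or under the shares of all genes, of which 5.97% rose and 9.82% fell. Of 14 DNA methylation and demethylation genes 2 fell (14.3%), Tet1 by 0.75 (adjusted p = 0.00196) and Dnmt3a by 0.50 (adjusted p = 0.0229). Neither held without replicate 1 of E12.5. The p53 and BCL2 family list had 1 fall in 24 (4.17%), Zmat3 by 0.86 ± 0.19. Imprinted genes had 1 rise, Cdkn1c, and 1 fall, Impact (-0.64, adjusted p = 0.0484), in 28 (3.57% each). After quantile normalization they had 3 rises and 0 falls. Interferon response genes had 0 rises and 1 fall in 9 (11.1%), Ddx58 (-0.59, adjusted p = 0.0182). Cholesterol synthesis genes had 0 rises and 1 fall in 15 (6.67%), Lss (-0.50, adjusted p = 0.0468). These calls were lost in several alternatives. Impact lost its call without any 1 replicate of E11.5, without replicate 1 or 3 of E12.5, and after quantile normalization or alignment of the medians. Lss lost it without any 1 replicate of E12.5 and after the same rescalings, and Ddx58 without replicate 1 of either stage. Cdkn1c lost it without replicate 3 of E11.5, without replicate 2 or 3 of E12.5 and in a fit of the compared groups alone.

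**Figure D3:**
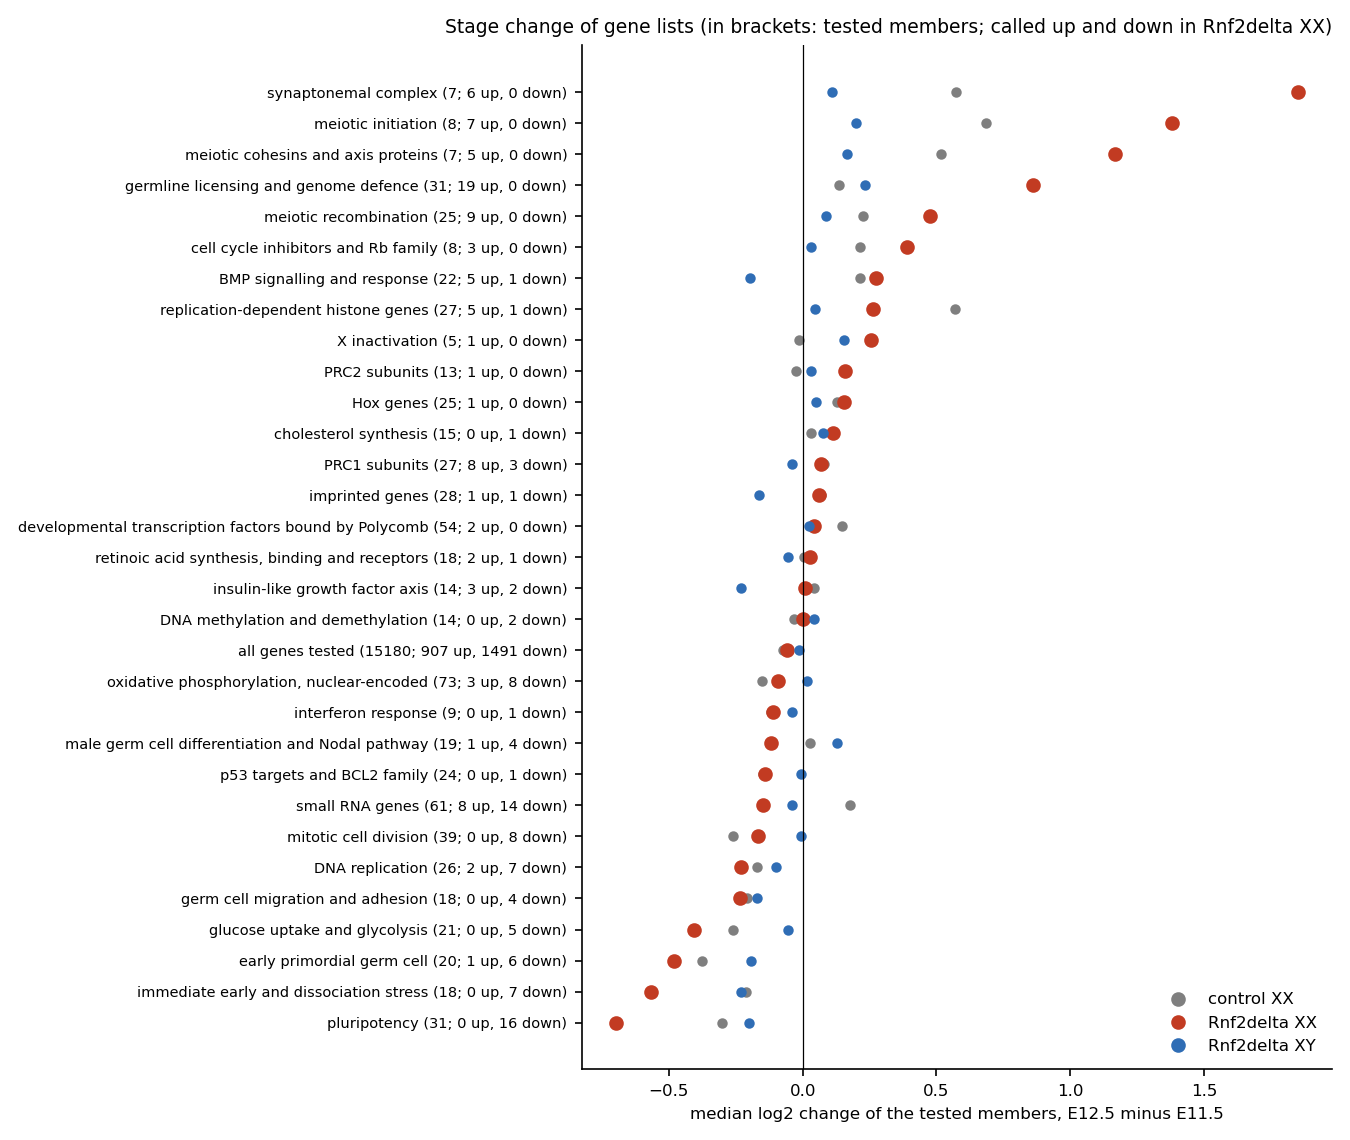
Median log2 change from E11.5 to E12.5 over the tested members of each gene list, in Rnf2delta XX (red), control XX (grey) and Rnf2delta XY (blue), with the number tested and called in Rnf2delta XX beside each name. In Rnf2delta XX the list medians run from -0.70 for pluripotency to 1.85 for the synaptonemal complex, and the median of all genes tested is -0.058.

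X-linked genes were examined after the calls had been seen. In XX germ cells the silent X chromosome is reactivated around these stages. A chromosome was assigned only to tested genes with a RefSeq promoter window, 12002 of the 15180. Of 398 such genes on the X, 74 rose (18.6%) and 15 fell (3.77%), with a median of 0.134. Of 11597 on the autosomes 651 rose (5.61%) and 1166 fell (10.1%), with a median of -0.065. After quantile normalization the 398 X genes had 96 rises and 12 falls, and the 11597 autosomal genes 955 and 902. Without replicate 1 of E12.5 the X had 42 and 6, and the autosomes 327 and 646. In control XX cells 4.27% of the same X genes rose and 4.27% fell, against 1.83% and 8.49% of the autosomal genes. In Rnf2delta XY cells 0.503% of X genes rose and 0.503% fell, against 0.19% and 0.423% of the autosomal genes. The difference of the stage changes from control XX called 1 X gene higher and 0 lower, against 2 and 0 of the autosomal genes. Xist, the RNA that coats the silent X, was 3.65, 3.35 and 2.77 at E11.5 and 3.48, 4.06 and 3.02 at E12.5. These overlapped (change 0.26 ± 0.21, adjusted p = 0.479), and both lay above the 1.99 to 2.51 of the Rnf2delta XY arrays.

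**Figure D4:**
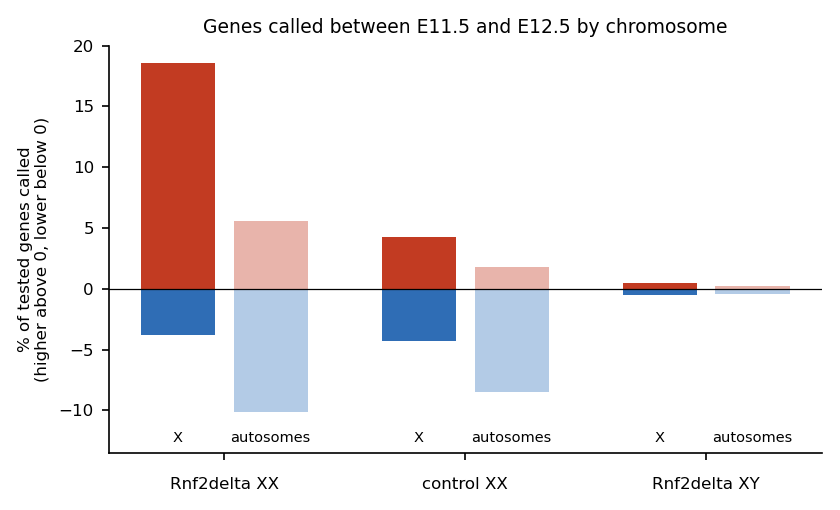
Percent of tested genes with a RefSeq promoter window called between E11.5 and E12.5 on the X chromosome (dark bars) and on autosomes (pale bars). Higher genes are above 0 and lower genes below, in 3 comparisons of 3 arrays against 3. In Rnf2delta XX the X bar reaches 18.6% above 0 and the autosome bar 5.61%.

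Short structured RNAs made up several of the largest changes. Rny1, a Y RNA, was 5.82, 5.10 and 6.50 at E11.5 and 8.96, 8.22 and 9.25 at E12.5, a rise of 3.003 ± 0.33 (adjusted p = 1.39e-06). Rmrp, the RNA of a nuclear ribonuclease, rose by 2.31 ± 0.38 and the snoRNA Rnu3a by 2.18 ± 0.34. A 5S ribosomal RNA locus, n-R5s136, rose by 2.03 ± 0.35. Of 61 small RNA genes 8 rose (13.1%, against 5.97% of all genes) and 14 fell (23%, against 9.82%). Their median was -0.15, and 7 fell without replicate 2 of E12.5. After quantile normalization 9 rose and 8 fell, and after the array medians were aligned 9 and 9. Their mean signal was 4.92 to 5.14 on the E11.5 arrays, 4.96 to 5.05 on the E12.5 arrays and 5.52 to 5.67 in control XX cells at E12.5. Histone genes of the replication-dependent clusters had 5 rises (18.5%, against 5.97% of all genes) and 1 fall (3.7%, against 9.82%) among 27. The median was 0.26, and without replicate 1 of E12.5 there were 2 rises (7.41%, against 3.02%). H2ac1, which encodes a germline H2A, was 6.48, 6.32 and 6.26 and then 8.87, 8.03 and 8.24, a rise of 2.03 ± 0.30 (adjusted p = 4.02e-05). Its neighbour H2bc1, a germline H2B, read 6.84 to 7.12 and then 8.45 to 9.43 (1.96, adjusted p = 0.0107, or 0.0772 without that array). Copies of small RNA, 5S and histone genes are alike enough that probe sets may read more than 1 of them.

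Outside the lists, the rises were led by 1700013H16Rik, an X-linked gene of the Xlr family, at 1.73, 1.73 and 1.89 and then 5.76, 5.57 and 4.39 (3.46 ± 0.26, adjusted p = 4.4e-10). Ptprj, a receptor tyrosine phosphatase, rose by 2.06 ± 0.29. The falls outside the lists included Cby1, a regulator of beta-catenin and cilia, at 7.77, 7.56 and 7.83 and then 5.87, 5.77 and 5.89 (-1.88 ± 0.14, adjusted p = 4.4e-10). Amt, of the glycine cleavage system, fell by 1.79 ± 0.29 and Gtf3c6, a subunit of transcription factor IIIC, by 1.64 ± 0.16. Itpa, Psmg3, Spns1, Apoc1, Tubb2b, H2-Bl, Gm10874 and the miRNA locus Mir6516 complete the 15 largest falls, with changes between -1.57 and -2.27.

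Markers of other gonadal cells gave few calls, but the lists are short. Endothelial markers had 1 fall among 8 tested and interstitial and mesenchymal markers 1 fall among 12. Both shares are near the 9.82% of all genes that fell. Steroidogenic, erythroid and macrophage markers had 0 calls among 3, 6 and 9. With so few genes per list, these counts cannot tell whether the share of such cells changed. The mean of each list per array was 3.16 to 3.21 and then 2.90 to 3.05 for endothelial markers, 2.94 to 3.02 and then 2.74 to 3.01 for interstitial markers, and 2.55 to 2.702 and then 2.41 to 2.65 for macrophage markers. It was 5.08 to 5.30 and then 4.84 to 5.16 for steroidogenic and 2.28 to 2.37 and then 2.23 to 2.38 for erythroid markers. Supporting cell markers had 2 rises among 17 (11.8%, against 5.97% of all genes), Dmrt1 by 1.45 ± 0.18 and Bmp2. The list means were 2.65 to 2.78 and then 2.66 to 2.92. Dmrt1 is also a germ cell gene. Above their array's 40th percentile on all 6 arrays were 8 of 18 supporting markers with a probe set (Wt1, Wnt4, Rspo1, Irx3, Gata4, Nr5a1, Dmrt1 and Bmp2), 6 of 14 interstitial (Pdgfra, Col1a1, Col1a2, Nr2f2, Vim and Fn1) and 2 of 6 steroidogenic (Fdx1 and Scarb1). The same held for 3 of 12 endothelial (Pecam1, Egfl7 and Eng), 3 of 7 erythroid (Alas2, Slc4a1 and Gata1) and 4 of 13 macrophage markers (Cx3cr1, C1qa, C1qb and Tyrobp). Their part in the results was not tested. Defining markers under the 40th percentile on all 6 arrays were Lgr5; Lum, Tcf21, Nr2f1 and Postn; Cyp11a1 and Cyp17a1; Kdr, Flt1, Tie1, Emcn and Cd34; Hbb-bh1 and Hbb-y; and Adgre1, Fcgr1, Cd14 and Ptprc.

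The same day in control XX cells gave 309 rises (2.04%) and 1235 falls (8.14%). Without replicate 2 of control XX E12.5 there were 131 rises and 797 falls, and without its replicate 1 there were 664 falls. The comparison shares no arrays with that in the mutant. Of the genes that rose in Rnf2delta XX, 175 also rose in control XX, which is 19.3% of the former and 56.6% of the latter. Of those that fell, 723 also fell, which is 48.5% and 58.5%. Genes called in opposite directions numbered 1 and 2. The difference of the stage changes themselves, the test of whether genotype altered the change, called 3 genes higher in Rnf2delta XX (0.0198%) and 1 lower (0.00659%). With equal weights for all arrays it called 15 and 7, and in a fit of the 4 compared groups alone 0 and 0. Without replicate 3 of Rnf2delta XX E12.5 it called 17 and 6, and without replicate 3 of control XX E12.5 it called 1 and 1.

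Meioc was among those 4. It was 1.55, 1.70 and 2.04 in control XX cells at E11.5 and 2.52, 2.21 and 2.33 at E12.5, and its change of 3.06 in the mutant exceeded that of 0.59 in the control by 2.48 ± 0.41 (adjusted p = 0.0128, and 0.00422 to 0.203 over the alternatives). The X-linked 1700013H16Rik changed by 2.76 ± 0.39 more in the mutant (adjusted p = 0.00137), in log2 values that at E11.5 lay under the 40th percentile of the arrays in both genotypes. Its control arrays were 1.69 to 1.93 at E11.5 and 1.95 to 2.90 at E12.5, below every mutant E12.5 array. Usp31, a deubiquitinase, differed because it fell in the control, from 5.02 to 5.25 at E11.5 to 3.31 to 3.93 at E12.5, and was 4.75 to 5.89 in the mutant (difference 1.99 ± 0.36, adjusted p = 0.0182). With the mean of its probe sets the difference was 0.94 (adjusted p = 0.354), and the call was also lost without several single arrays. Gm12238, a snoRNA locus, changed by 1.64 ± 0.29 less in the mutant (-0.59) than in the control (1.05; adjusted p = 0.0182), also lost without several single arrays. In a fit of the 4 compared groups alone the adjusted p was 0.159 for 1700013H16Rik, 0.203 for Meioc and Usp31 and 0.254 for Gm12238, and Meioc also lost the call without replicate 2 (0.074) or 3 (0.0691) of control XX E12.5. Stra8 was next by p: its control arrays were 2.19, 2.22 and 1.92 and then 3.60, 2.71 and 2.07, and the difference of 2.72 ± 0.53 had an adjusted p of 0.0576, with 0.00295 to 0.28 over the alternatives.

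For most meiotic and pluripotency genes the difference of the stage changes between the genotypes was tested and did not pass. Sycp1 changed by 0.98 in the control (adjusted p = 0.0647) and 2.66 in the mutant, with an adjusted p of 0.311 for the difference. Sycp3 changed by 0.57 and 1.95 (0.6 for the difference), and Rec8 by 1.02 and 1.99 (0.565). Dazl rose in both, by 1.64 and 2.26 (0.836), as did Ddx4, by 1.59 and 1.38 (0.974). Zglp1 rose by 2.26 in the control and 1.45 in the mutant (0.654). Pou5f1 changed by -0.02 and -0.76 (0.515) and Sox2 by 0.14 and -0.81 (0.351), while Tdgf1 fell by 3.01 and 3.03 (0.998). The list medians in the control were 0.69 for initiation, 0.57 for the synaptonemal complex, 0.14 for licensing and -0.30 for pluripotency. The control XX E12.5 arrays, with the widest spread and the highest small RNA signal of all groups, enter each of these differences. Their part in the differences was not tested.

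**Figure D5:**
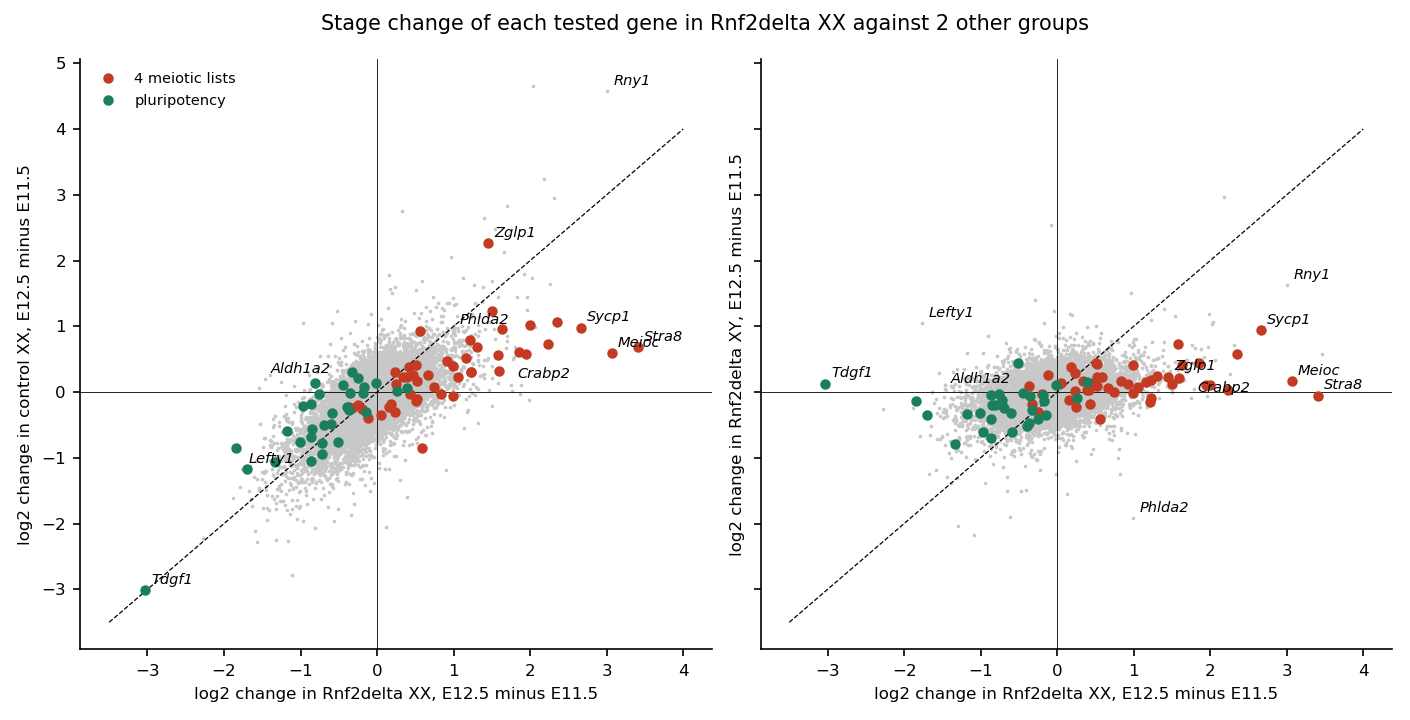
Log2 change from E11.5 to E12.5 of each tested gene in Rnf2delta XX (horizontal) against control XX (left) and Rnf2delta XY (right), with members of the 4 meiotic lists in red, pluripotency members in green and a dashed line of equal change. Stra8 lies at 3.41 on the horizontal axis against 0.68 in control XX and -0.05 in Rnf2delta XY, and Tdgf1 at -3.03 against -3.01 and 0.13.

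In XY cells with the same deletion the day brought 34 rises (0.224%) and 77 falls (0.507%). These counts moved with single arrays: without replicate 1, 2 or 3 of Rnf2delta XY E11.5 they were 10 and 20, 18 and 57, and 112 and 185, and without replicate 1, 2 or 3 of E12.5 they were 10 and 20, 3 and 12, and 248 and 217. Of the genes that rose in Rnf2delta XX, 11 also rose in Rnf2delta XY (1.21% of the former and 32.4% of the latter), and 43 of those that fell also fell (2.88% and 55.8%). The stage change itself differed between the sexes for 182 genes in the higher direction (1.2%) and 262 in the lower (1.73%). Without replicate 1 of Rnf2delta XX E12.5 these were 61 and 116, without replicate 1 of Rnf2delta XY E12.5 they were 88 and 120, and without its replicate 2 they were 94 and 110. Without replicate 3 of that group 168 and 421 passed, and without replicate 1 of Rnf2delta XX E11.5 108 and 163. Without replicate 2 of Rnf2delta XX E11.5, replicate 2 of Rnf2delta XX E12.5 and replicate 3 of Rnf2delta XY E11.5, 113, 112 and 112 were higher. Members called higher numbered 5 of 8 in initiation, 4 of 7 in the synaptonemal complex, 4 of 7 in cohesins and axis, 2 of 25 in recombination and 4 of 31 in licensing.

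Stra8 changed by -0.05 in XY cells (adjusted p = 0.969), which read 2.03, 2.36 and 2.40 at E11.5 and 2.31, 2.03 and 2.29 at E12.5, and the sexes differed by 3.46 ± 0.47 (adjusted p = 7.98e-05). Meioc read 2.33, 2.29 and 2.54 and then 3.07, 2.64 and 1.94, a difference of 2.90 ± 0.36 (adjusted p = 3.46e-05). Both held under each alternative and without any single array. Rec8 differed by 1.89 ± 0.32 (adjusted p = 0.00139) and Dazl by 1.99 ± 0.38 (adjusted p = 0.00404). Dazl in XY cells was already 7.50, 8.37 and 8.92 at E11.5, and 8.52, 8.52 and 8.56 at E12.5. Sycp3 (1.84, adjusted p = 0.0297), Dmc1 (1.37, adjusted p = 0.0332) and Zglp1 (1.21, adjusted p = 0.0303) also passed, and each lost the call without replicate 1 of Rnf2delta XX E12.5 and without 5 other single arrays.

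In the other direction, Tdgf1 was 5.98, 6.99 and 6.35 and then 6.28, 7.05 and 6.37 in XY cells, and the difference was -3.16 ± 0.55 (adjusted p = 0.00163). Lefty1 was 4.37 to 6.08 on the XY arrays at E11.5 and 6.27 to 6.83 at E12.5 (change 1.04, adjusted p = 0.161), and the difference was -2.81 ± 0.54 (adjusted p = 0.00401). Otx2, a Nodal-linked homeobox gene, was 4.53 to 5.39 in XY cells at E12.5 and 2.51 to 2.65 in XX cells (difference of the stage changes -1.69 ± 0.35, adjusted p = 0.00766). L1td1 differed by -1.71 ± 0.29 and Cby1 by -1.64 ± 0.19. Phlda2, an imprinted growth gene, had a positive difference of the stage changes, 2.91 ± 0.59 (adjusted p = 0.00693). At E12.5 it was 7.40, 8.48 and 8.54 in XX cells and 4.01 to 4.83 in XY cells. The difference also takes in the E11.5 levels of both sexes, so it is not the size of a rise in XX cells. Crabp2 differed by 1.84 ± 0.42 (adjusted p = 0.0144), and this was lost without replicate 1 of Rnf2delta XX E12.5.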

How the data were processed

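The authors deposited log2 expression values per probe set of Affymetrix arrays, with normalization method and genome build not given in the sources used here; R 2.15 and affy 1.36 are named in the submitters' processing notes. Raw scans were not analysed here; precision is limited by how many arrays each group has. Of 34760 probe sets 21640 had 1 gene symbol (1321 several, 11799 none), giving 19937 genes; a gene with several probe sets (954) was represented by the one with the highest mean. Genes above their array's 40th percentile on at least 3 of the 30 arrays were tested (15180). All 30 arrays were fitted with limma 3.58.1 in R 4.3.3, with 1 mean and 1 weight per group, eBayes and Benjamini-Hochberg adjustment at 0.05, and the fit was checked on simulated data. Contrasts were the stage change in each group pair and the differences of stage changes. Named genes were the 15 largest rises and the 15 largest falls without overlap between stages, up to 5 called members of each list, a set of 22 genes whatever their result, and the 10 largest differences each way between groups (where fewer than 5 passed, the 5 with the smallest p); unannotated loci could be left out. Further list members are named as examples, chosen after their values were seen. Members and lists were chosen with earlier results of these data known. The X chromosome grouping was chosen after values were seen. Promoter windows came from RefSeq on GRCm38.p6.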

Additional observations from a re-analysis of the deposited data

Results flagged for a closer look

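Genes whose change from E11.5 to E12.5 differed between groups by the test of the difference are given here as the change in Rnf2delta XX minus that in the other group, from limma. Against control XX the differences were 2.76 for 1700013H16Rik, 2.48 for Meioc, 1.99 for Usp31 and -1.64 for Gm12238.

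Against Rnf2delta XY, meiotic and germline genes differed by 3.46 for Stra8, 2.90 for Meioc, 2.88 for 1700013H16Rik, 2.20 for 4930447C04Rik, 1.99 for Dazl, 1.89 for Rec8, 1.84 for Sycp3, 1.71 for Sycp1, 1.37 for Dmc1, 1.21 for Zglp1 and 1.02 for Spo11. The others with a positive difference were Phlda2 at 2.91, Cks2, a cyclin-dependent kinase subunit, at 2.07 and Crabp2 at 1.84. A positive difference can come from a rise in XX cells, a fall in XY cells or both.

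The Rnf2delta XY comparison also gave negative differences of the stage changes, at -3.16 for Tdgf1, -2.81 for Lefty1, -2.02 for Mir6516, -1.84 for Igha, -1.71 for L1td1, -1.69 for Otx2, -1.66 for Wdr31, -1.66 for Mpi, -1.64 for Cby1 and -1.63 for Gtf3c6.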

How the results depend on the processing

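Of 134 named genes with a call in Rnf2delta XX, 93 kept it in every alternative that tested them. Counts are given as higher and lower genes. With the compared groups only, 599 genes were higher in Rnf2delta XX, the differences gave 0 and 0 against control XX and 77 and 158 against Rnf2delta XY, and the stage changes gave 179 and 747 in control XX and 3 and 10 in Rnf2delta XY. Equal weights gave 15 and 7 for the difference from control XX and 692 and 2161 in control XX. With 1 weight per array, the difference from control XX had 4 and 2, and Rnf2delta XY had 189 and 254. Quantile normalization gave 326 higher against Rnf2delta XY, 566 and 632 in control XX and 103 and 126 in Rnf2delta XY, and median centring 553 and 781 in control XX and 60 and 50 in Rnf2delta XY. With no filter 54 were higher in Rnf2delta XY.

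With the replicate block, 874 and 1465 genes passed in Rnf2delta XX, 298 and 1212 in control XX, 37 and 89 in Rnf2delta XY, 4 and 2 for the difference from control XX and 168 and 253 for that from Rnf2delta XY. The numbers were not taken to pair the samples. The deviations of same-numbered samples correlated at -0.051, 0.003 and -0.083 between the stages of Rnf2delta XX, at 0.093, 0.059 and 0.079 between Rnf2delta XX and control XX at E12.5, at 0.013, 0.143 and 0.192 between Rnf2delta XX and Rnf2delta XY at E11.5, and at 0.048, 0.019 and 0.069 between them at E12.5.

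Leaving out 1 replicate at a time gave 459 to 984 higher and 834 to 1365 lower in Rnf2delta XX, 131 to 271 and 664 to 1339 in control XX, and 3 to 248 and 12 to 217 in Rnf2delta XY. The differences ranged over 1 to 17 and 0 to 6 against control XX and 61 to 230 and 110 to 421 against Rnf2delta XY. Cks2 reversed with the mean of its probe sets, from 0.82 to -0.36 (adjusted p = 0.11), and its difference from Rnf2delta XY was then 0.01. An alternative chosen after seeing the data, without the control XX E12.5 arrays, gave 894 and 1492 in Rnf2delta XX. The cause of these shifts was not tested.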
